A study of Saccharomyces cerevisiae with 8 samples.

Results

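The B-type and late G1 cyclins of budding yeast were examined together with the inhibitor Sic1 and the polo kinase Cdc5. The members were the 10 rows of the expression table with the gene names CLN1, CLN2, CLB1, CLB2, CLB3, CLB4, CLB5, CLB6, SIC1 and CDC5, out of 6016 genes in all. RNA-seq and ribosome profiling (RIBO-seq, sequencing of the mRNA stretches that ribosomes protect) were done on haploid Saccharomyces cerevisiae of strain BY4741. All cells carried an mCherry reporter whose lysine codon 14 is replaced by the stop codon UAG, and a guide RNA cassette. Such guides direct pseudouridylation, in which a uridine of an RNA is turned into its isomer pseudouridine. Guides of the targeted cells addressed that premature stop codon and the anticodon of a lysine tRNA, so that a modified codon meets a modified anticodon. The control cells carried control guides. Cultures were grown to mid-log phase in synthetic dextrose medium without leucine and uracil. The table held 2 RNA and 2 footprint libraries of targeted cells and 2 RNA and 2 footprint libraries of control cells. Below, a culture means the RNA and footprint samples of a cell group with the same replicate number. Whether these are separate cultures is not in the labels. The question for these genes was whether targeting changed their mRNA, their footprints or the footprints per mRNA.

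Cyclins activate Cdc28, the cyclin-dependent kinase that drives the yeast cell cycle, and each is made in its own window of the cycle. Cln1 and Cln2 act at the commitment to division in late G1, Clb5 and Clb6 start DNA replication, Clb3 and Clb4 act from S phase into mitosis, and Clb1 and Clb2 drive mitosis itself. Sic1 holds Clb kinase inactive in G1 until it is phosphorylated and destroyed through the ubiquitin ligase SCF, and Cdc5 promotes mitosis and the exit from it before the anaphase-promoting complex destroys it. In a culture that is not synchronised, a level is an average over cells in all stages, so fewer cells in a stage and less RNA per cell cannot be told apart.

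Summed RNA counts were 33947846 and 21073013 in targeted cells and 61908589 and 33911841 in control cells. Summed footprint counts were 15253540 and 14163627 in targeted cells and 11849950 and 8080039 in control cells. Transposon rows held 69.8 to 72.9% of the RNA counts and 20.6 to 23.2% of the footprint counts. The members had 117 to 3040 reads per RNA library and 101 to 1307 per footprint library, which gives a counting error of 1.81 to 9.25% for RNA and 2.77 to 9.95% for footprints. The strain label was checked against marker genes: STE2, the pheromone receptor of MATa cells, had at least 4290 reads in every library, and of the 4 MATalpha markers MF(ALPHA)1 had at most 8 and MF(ALPHA)2 at most 3, while STE3 (23 to 88) and SAG1 (29 to 545) were at 0 in no library. Of 4 genes that BY4741 lacks in full or in part, MET17 had at most 1 read, but HIS3 had 499 to 1363, URA3 2976 to 17721 and LEU2 61543 to 258869. The medium selects for leucine and uracil synthesis, and the origin of these reads was not tested. Of the 7 MATa markers none was at 0 in any library, and their summed CPM (reads scaled to library size) was 618 and 620 in targeted and 666 to 695 in control RNA. Of the 5 genes of pheromone arrest, none was called in RNA or footprints, where 0.368% and 0.586% of all genes were. The summed CPM of these 5 genes was 31.8 to 32.6 in targeted and 36.8 to 39.0 in control RNA. In footprints it was 65.8 to 67.8 in targeted and 70.9 to 72.2 in control cells. Scaled by library size alone, the median of all genes was itself lower in targeted RNA, at -0.07 log2. How many genes or lists lay apart between the groups on this scale was not counted. The 8 core histone genes, which are made in S phase, had a summed CPM of 806 to 850 in targeted and 842 to 927 in control RNA. In footprints it was 4246 to 4488 in targeted and 4258.5 to 4402 in control cells. None of the 8 was called. On the scale of the tests, the median log2 difference of the histones was -0.02 in RNA and 0.04 in footprints. It was -0.21 and -0.14 for pheromone arrest, and -0.17 and -0.09 for the MATa markers. The part of either list in the members' values was not tested.

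The members spanned the lower to the upper range of all genes, and CLN2 was the highest of them in every library. CLN2 (YPL256C, chromosome 16, 64977 to 66614, minus strand, build R64 as in all coordinates here) encodes a G1 cyclin. Its footprints were 49.7 and 53.2 RPKM (reads scaled to coding length and to library size) in targeted cells and 54.2 and 49.9 RPKM in control cells. Its RNA was 30.1 and 30.8 RPKM in targeted and 29.8 and 32.5 RPKM in control cells. The groups overlapped in both assays on this scale, and the RNA lay above 79.9 to 81.0% of all genes. CLN1 (YMR199W, chromosome 13, 662644 to 664284, plus strand), its paralog, had footprints of 24.7 and 27.9 RPKM in targeted and 27.1 and 25.6 RPKM in control cells, and RNA of 15.9 and 17.9 RPKM in targeted and 17.5 and 17.1 RPKM in control cells. Its place was 3 of 10 in all 8 libraries, and its groups also overlapped.

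SIC1 (YLR079W, chromosome 12, 286820 to 287674, plus strand), the Cdk inhibitor, had place 2 of 10 in all 8 libraries. Its footprints were 33.5 and 33.1 RPKM in targeted and 32.2 and 35.9 RPKM in control cells. Its RNA was 21.5 and 19.2 RPKM in targeted cells, below the 22.5 and 22.8 RPKM of control cells on this scale. On TMM-normalised CPM, the scale of the tests, the RNA libraries of SIC1 overlapped between the groups. The share of all genes whose groups lay apart was counted on that scale only, not in RPKM. CDC5 (YMR001C, chromosome 13, 269019 to 271136, minus strand), the polo kinase, had footprints of 16.3 and 17.6 RPKM in targeted cells and 19.4 and 20.1 RPKM in control cells. Its RNA was 11.5 and 10.9 RPKM in targeted and 10.7 and 11.3 RPKM in control cells. The targeted footprint libraries of CDC5 both lay below the control ones, while its RNA overlapped on this scale.

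The mitotic cyclins CLB1 and CLB2 came next. CLB1 (YGR108W, chromosome 7, 703636 to 705051, plus strand) had footprints of 21.0 and 24.5 RPKM in targeted and 23.6 and 25.0 RPKM in control cells, and RNA of 11.1 and 11.1 RPKM in targeted and 12.4 and 11.2 RPKM in control cells. CLB2 (YPR119W, chromosome 16, 771653 to 773128, plus strand), the main mitotic cyclin, had footprints of 18.0 and 19.1 RPKM in targeted and 18.1 and 19.4 RPKM in control cells. Its RNA was 13.1 and 11.2 RPKM in targeted cells and 13.2 and 15.1 RPKM in control cells. Both targeted RNA libraries of CLB2 thus lay below both control libraries, the first of them narrowly. The same held for CLB1 RNA in RPKM, but on TMM-normalised CPM the groups of CLB1 overlapped.

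CLB3 (YDL155W, chromosome 4, 176773 to 178056, plus strand) had footprints of 13.0 and 13.8 RPKM in targeted and 14.7 and 14.5 RPKM in control cells, and RNA of 11.4 and 11.8 RPKM in targeted and 11.7 and 13.0 RPKM in control cells. CLB4 (YLR210W, chromosome 12, 562008 to 563390, plus strand) had footprints of 8.61 and 9.43 RPKM in targeted and 10.5 and 9.89 RPKM in control cells, and RNA of 5.14 and 5.46 RPKM in targeted and 5.61 and 6.12 RPKM in control cells. For both of these early mitotic cyclins the targeted footprint libraries lay below the control ones in RPKM and overlapped with them on TMM-normalised CPM. This was also so for CLB4 RNA, and how many of all genes lay apart in RPKM was not counted. The S-phase cyclins CLB5 (YPR120C, chromosome 16, 773875 to 775182, minus strand) and CLB6 (YGR109C, chromosome 7, 705359 to 706501, minus strand) were at the low end. CLB5 had footprints of 10.5 and 9.20 RPKM in targeted and 10.3 and 11.8 RPKM in control cells, and RNA of 7.67 and 7.95 RPKM in targeted and 8.67 and 7.84 RPKM in control cells. CLB6 had footprints of 11.2 and 11.9 RPKM in targeted and 13.2 and 10.9 RPKM in control cells, and RNA of 5.13 and 4.77 RPKM in targeted and 5.07 and 5.07 RPKM in control cells. The groups of CLB5 and of CLB6 overlapped in both assays. CLB6 mRNA was the lowest of the 10 in all 4 RNA libraries and lay above only 22.1 to 25.2% of all genes.

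**Figure D1:**
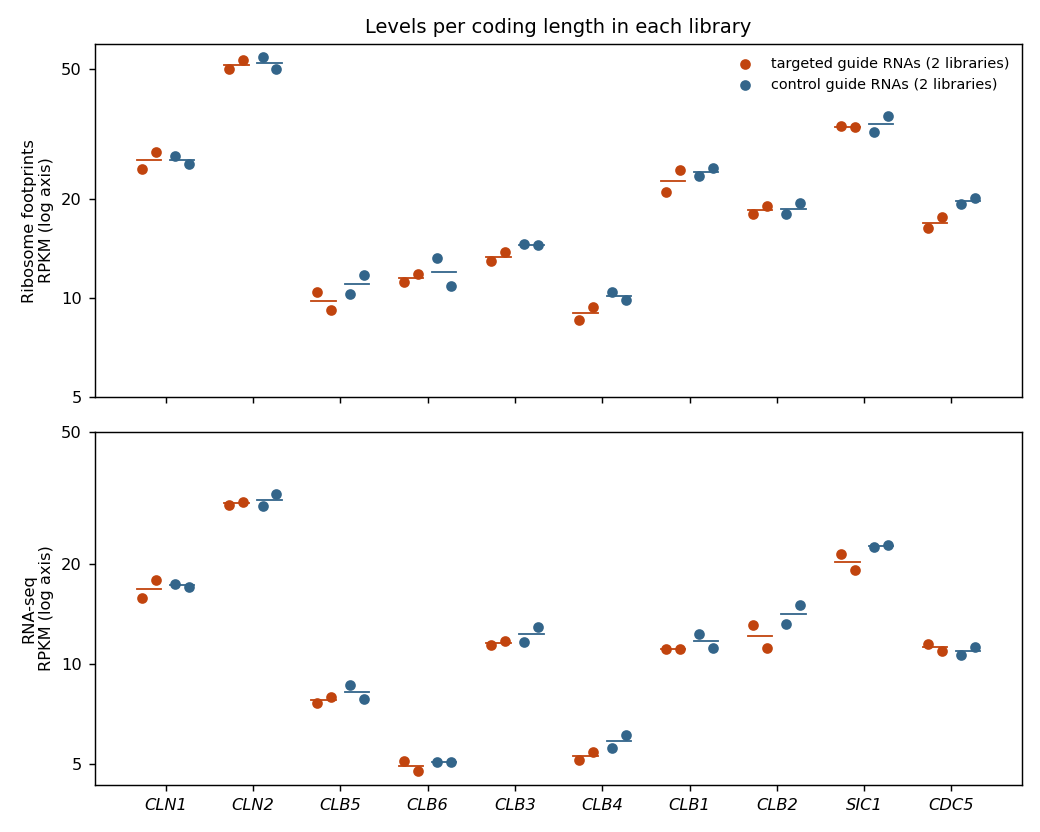
Footprint (top) and RNA (bottom) RPKM of the 10 genes on log axes, with targeted libraries left of control libraries, 1 point per library and a bar at the mean of 2. CLN2, SIC1 and CLN1 hold the first 3 places in every library, and targeted and control points lie close together for each gene.

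The order by RNA over the 4 libraries was CLN2, SIC1, CLN1, CLB2, CLB3, CLB1, CDC5, CLB5, CLB4 and CLB6. Neighbours in this order were apart in every library except CLB2 with CLB3, CLB3 with CLB1 and CLB1 with CDC5, whose ranges overlapped. By footprints the order was CLN2, SIC1, CLN1, CLB1, CLB2, CDC5, CLB3, CLB6, CLB5 and CLB4, with overlapping ranges of CLN1 with CLB1, CLB2 with CDC5, and along the last 4 genes. Mean places were the same for all 10 genes in each group when TMM-normalised CPM per kilobase replaced RPKM. Both scales use the same counts and lengths, so within a library the order cannot differ between them. Of the summed RPKM of the 8 cyclins, the G1 pair held 45.2 to 47.9% of footprints and 45.5 to 48.2% of RNA. The S-phase pair held 12.5 to 13.9% of footprints and 11.98 to 13.2% of RNA. The early mitotic pair held 13.8 to 14.6% of footprints and 16.6 to 17.7% of RNA, and was the pair whose ranges did not overlap between the assays. The late mitotic pair held 24.3 to 26.6% of footprints and 22.1 to 24.6% of RNA.

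Most of these genes carried fewer footprints per mRNA than the typical gene. On the mean over the 4 cultures CLB3 and CLB5 had the fewest, while CLB6 and CLB1 stood out on the high side of the group. In control cells alone the mean ratio of CLB2 (1.33) was just below that of CLB5 (1.34). The ratio of footprint RPKM to RNA RPKM (the translational efficiency) of CLB3 was 1.14 and 1.18 in targeted and 1.26 and 1.12 in control cells, and that of CLB5 was 1.37 and 1.16 in targeted and 1.19 and 1.502 in control cells. The ratio of CLB6 was 2.19 and 2.49 in targeted and 2.61 and 2.15 in control cells, and that of CLB1 was 1.89 and 2.20 in targeted and 1.91 and 2.24 in control cells. Over the 5371 genes with at least 10 reads in every library, the median ratio was 1.94 to 2.05 per culture. Thus 8 members, CLN1, CLN2, CLB2, CLB3, CLB4, CLB5, SIC1 and CDC5, lay below that median in all 4 cultures, CLB6 lay above it in all 4, and CLB1 in 2 of 4. CLB3 stood above only 17.2 to 20.8% of those genes, CLB5 above 18.4 to 32.6%, and CLB6 above 56.0 to 69.0%.

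On the mean over the 4 cultures the other members lay between these. CLN1 had a ratio of 1.56 and 1.56 in targeted and 1.55 and 1.499 in control cells, the narrowest spread of the group, with both targeted cultures just above both control cultures. CLN2 had 1.65 and 1.73 in targeted and 1.82 and 1.53 in control cells. CLB4 had 1.67 and 1.73 in targeted and 1.86 and 1.62 in control cells. The 2 groups overlapped for CLN2 and CLB4. SIC1 had 1.56 and 1.73 in targeted and 1.43 and 1.57 in control cells, again overlapping. CLB2 had 1.37 and 1.71 in targeted and 1.37 and 1.29 in control cells. CDC5 had 1.42 and 1.61 in targeted cells, both below the 1.82 and 1.79 of control cells. In the order CLB6, CLB1, CLB4, CLN2, CDC5, SIC1, CLN1, CLB2, CLB5 and CLB3, only CLB1 and CLB4 were neighbours whose ranges did not overlap.

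**Figure D2:**
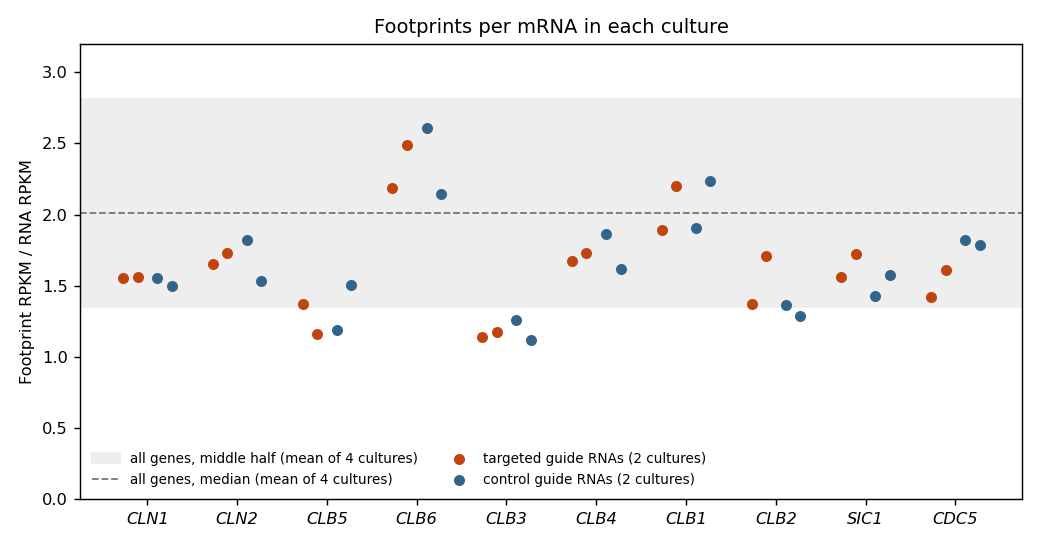
Footprint RPKM over RNA RPKM of the 10 genes, with targeted cultures left of control cultures, 1 point per culture. The dashed line is the median and the band the interquartile range of 5371 genes, each averaged over the 4 cultures, and 8 of the 10 genes lie below the line in every culture.

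The edgeR quasi-likelihood test of footprints against RNA called 7 members lower in targeted cells and 6 lower in control cells, and none higher in either. Among all genes tested, 36.3% were called lower and 34.8% higher in targeted cells, and 38.7% lower and 36.5% higher in control cells, or 71.2% in all in targeted and 75.2% in all in control cells. With calls in both directions counted, the share of members called was near or below that of all genes. On the lower side alone it was above that of all genes. There, 7 of 10 members stood beside 36.3% of all genes in targeted cells, and 6 of 10 beside 38.7% in control cells. The difference between these shares was not tested. At an unadjusted p under 0.05 the same counts of 7 and 6 members passed, beside 73.7% and 76.8% of all genes. The median log2 value of the members was -0.32 in targeted and -0.30 in control cells, beside -0.01 and -0.02 over all genes. CLB3 was lower by -0.78 ± 0.10 (SE) in targeted cells (adjusted p of 0.000203) and -0.72 ± 0.08 in control cells (adjusted p of 5.21e-05). CLB5 was at -0.66 ± 0.11 (adjusted p of 0.00109) in targeted and -0.58 ± 0.12 (adjusted p of 0.00220) in control cells. CLB2 was at -0.39 ± 0.10 (adjusted p of 0.00701) in targeted and -0.57 ± 0.07 (adjusted p of 9.82e-05) in control cells. CDC5 was called in targeted cells only, at -0.40 ± 0.08 (adjusted p of 0.00240), against -0.13 ± 0.06 (adjusted p of 0.0885) in control cells, and the edgeR test of that difference had an adjusted p of 0.999986. CLN1, SIC1 and CLN2 were called lower in both groups, with log2 values of -0.35, -0.29 and -0.24 in targeted and -0.37, -0.40 and -0.23 in control cells. CLB4, CLB1 and CLB6 were called in neither. CLB6 was at 0.22 ± 0.12 in targeted and 0.29 ± 0.13 in control cells (adjusted p of 0.120 and 0.0787), and with the culture as a block it was called higher in control cells (0.29, adjusted p of 0.0223).

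These directions are relative to the typical gene. Scaled by library size alone, the median gene moved to 1.02 in targeted and 0.95 in control cells, and the members' signs moved with it. Relative to that median CLB3 was at -0.77 in targeted and -0.70 in control cells, and CLB6 at 0.24 and 0.31. Scaling shifts all genes by nearly the same amount, so these relative values had to stay close and are no separate check. Leaving out a culture ended some calls: without targeted replicate 1, CLN2 (-0.21, adjusted p of 0.0692), CLB2 (-0.23, 0.0869) and SIC1 (-0.21, 0.126) lost theirs in targeted cells. Without control replicate 1 it was CLN1 (-0.36, adjusted p of 0.0821), CLB5 (-0.36, 0.0975) and SIC1 (-0.29, 0.0766) in control cells, and without control replicate 2 CLN1 (-0.37, 0.0521) and CLN2 (-0.14, 0.292). The call of CLB3 held in each fit without a replicate, and fewer of all genes were called in each of these fits than with both replicates. DESeq2 did not call CLN2 in targeted (-0.23, adjusted p of 0.0823) or control cells (-0.21, 0.0580), nor SIC1 in targeted cells (-0.28, 0.106).

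The cyclins come in paralog pairs, and in each B-type pair the gene with less mRNA carried more footprints per mRNA. The RNA level enters both of these measures. CLB1 and CLB6 lie next to each other on chromosome 7, and CLB2 and CLB5 on chromosome 16, each pair with the genes pointing at each other and with 307 and 746 bases between the coding regions. A ratio of a pair within a culture does not depend on library scaling. CLB6 had 1.07, 1.29, 1.29 and 0.925 times the footprint RPKM of CLB5 but only 0.670, 0.600, 0.585 and 0.647 times its RNA RPKM, in targeted replicates 1 and 2 and control replicates 1 and 2. CLB6 mRNA was thus below CLB5 mRNA in all 4 cultures, while their footprints were close, higher for CLB6 in 3 of 4. The footprints per mRNA of CLB6 were 1.60 and 2.15 times those of CLB5 in targeted and 2.20 and 1.43 times in control cells.

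CLB3 had 1.51 and 1.47 times the footprints of CLB4 in targeted and 1.403 and 1.47 times in control cells, against 2.22 and 2.15 times its RNA in targeted and 2.08 and 2.12 times in control cells. The footprints per mRNA of CLB3 were therefore 0.678 and 0.681 times those of CLB4 in targeted and 0.675 and 0.692 times in control cells, a spread of 0.02 on the log2 scale (SD, n = 4). This was the most even of the pair ratios over the cultures. CLB1 had more footprints than CLB2, 1.17 and 1.28 times in targeted and 1.31 and 1.28 times in control cells, but less RNA, 0.847 and 0.995 times in targeted and 0.936 and 0.741 times in control cells. The order of the mitotic cyclins was thus turned round between footprints and RNA in all 4 cultures, although in targeted replicate 2 their RNA was nearly equal. CLB1 had 1.38 and 1.29 times the footprints per mRNA of CLB2 in targeted and 1.39 and 1.73 times in control cells. In these 3 pairs the 95% interval from counting error of the difference in footprints per mRNA lay on the same side of 1 in all 4 cultures.

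The G1 pair differed least of the 4 pairs in footprints per mRNA. CLN2 had 2.01 and 1.91 times the footprints of CLN1 in targeted and 1.9999 and 1.95 times in control cells, and 1.90 and 1.72 times its RNA in targeted and 1.71 and 1.90 times in control cells. Its footprints per mRNA were 1.06 and 1.11 times those of CLN1 in targeted and 1.17 and 1.02 times in control cells, and the counting interval excluded 1 in 1 of 4 cultures. Over 4 cultures the smallest p of an exact two-sided permutation test (sign flips) is 0.125, so no pair can pass the threshold. That p is reached whenever all 4 cultures lie on the same side of 1. It was reached in 11 of the 12 comparisons of 4 pairs in footprints, RNA and footprints per mRNA, with a Benjamini-Hochberg adjusted p of 0.136. Footprints of CLB5 and CLB6 had an exact p of 0.375. The 12 comparisons are not separate, since footprints per mRNA are computed from footprints and RNA. How the authors counted reads that map to several places is not given in the sources used here, so values of paralogs are uncertain as far as they share sequence.

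**Figure D3:**
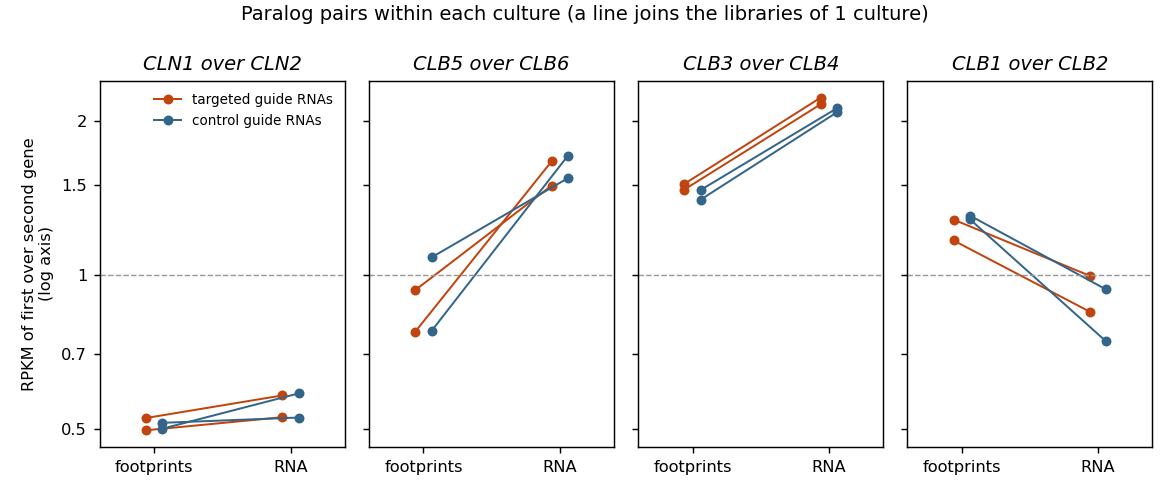
RPKM of the first gene over the second in footprints (left) and RNA (right) for 4 paralog pairs on a log axis, with a line joining the libraries of each of 4 cultures. The lines of CLB5 over CLB6 and CLB3 over CLB4 are lower in footprints than in RNA, those of CLB1 over CLB2 are higher, and the dashed line marks equal levels.

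No member was called different between targeted and control cells, in RNA, in footprints or in footprints per mRNA. Of the 10 members, 0 were called in RNA where 0.368% of 5712 genes were, and 0 in footprints where 0.586% of 5461 genes were. Their median log2 difference was 0.00 in RNA and -0.02 in footprints, beside 0.00 and 0.00 over all genes. At an unadjusted p under 0.05, 0 members passed in RNA (4.46% of all genes) and 0 in footprints (4.54%), and DESeq2 called 0 members in either. The groups did not overlap on TMM-normalised CPM for CLN2, CLB2 and CDC5 in RNA (32.3% of all genes) and for CDC5 in footprints (31.3%, and 15.2% with the targeted libraries below), so these counts of 3 and 1 of 10 are near or below the background. No alternative called a member in these comparisons.

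The largest RNA differences were those of CDC5 and CLB2. CDC5 differed by 0.13 ± 0.07 (SE) on the log2 scale, with an adjusted p of 0.973 and both targeted libraries above both control libraries on TMM-normalised CPM, 25.1 and 24.6 against 23.1 and 22.5. CLB2 differed by -0.11 ± 0.08 (adjusted p of 0.973), with 19.9 and 17.5 CPM in targeted and 19.9 and 21.0 CPM in control cells. The G1 cyclins CLN1 and CLN2 were at 0.04 ± 0.09 and 0.06 ± 0.06, and SIC1 at -0.07 ± 0.08. The S-phase cyclins CLB5 and CLB6 were at -0.01 ± 0.11 and 0.05 ± 0.11, and CLB3, CLB4 and CLB1 at 0.00 ± 0.08, -0.06 ± 0.10 and -0.01 ± 0.10. Scaled by library size alone, the median gene lay at -0.07, and CLN1, CLN2, CLB3 and CLB6 took a negative sign. The 95% intervals of the 10 RNA differences ran from -0.30 at the lowest, for CLB2, to 0.30 at the highest, for CLB6.

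In footprints CDC5 had the lowest value of the 10, -0.15 ± 0.09 (adjusted p of 0.999), with 35.9 and 39.6 CPM in targeted and 41.8 and 42.0 CPM in control cells. CLB4 was at -0.11 ± 0.13, CLB5 at -0.09 ± 0.13, CLB3 at -0.06 ± 0.11, CLB1 at -0.02 ± 0.11 and CLB6 at -0.01 ± 0.14. CLN1, CLB2, CLN2 and SIC1 were at 0.06 ± 0.10, 0.06 ± 0.10, 0.05 ± 0.08 and 0.04 ± 0.09. The widest interval was that of CLB6, from -0.32 to 0.29, and the lowest bound was -0.40 for CLB4.

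The change of footprints per mRNA was tested as the interaction of assay and guide, in a main fit without a term for the culture. CDC5 had the smallest p of the members, with a log2 change of -0.27 ± 0.10 (95% interval from -0.49 to -0.05). Its unadjusted p of 0.0209 stood at rank 27 of 5665 genes, and its edgeR adjusted p was 0.999986, so it was not called. Its ratio averaged 1.51 ± 0.136 in targeted and 1.802 ± 0.0233 in control cells (SD, n = 2 each). On TMM-normalised CPM, groups did not overlap for 2 of 10 members, CLB2 with targeted cultures above and CDC5 with targeted cultures below, beside 34.1% of all genes (18.3% above and 15.8% below). On the RPKM ratio CLN1 did not overlap either, with targeted cultures above, and the share of all genes on that ratio was not counted. The value of CDC5 ranged from -0.36 without targeted replicate 2 to -0.18 without targeted replicate 1. With the culture as a block it was -0.28, with an edgeR adjusted p of 0.675. CLB2 was on the other side of 0, at 0.18 ± 0.12 (unadjusted p of 0.175), and without targeted replicate 2 it was at 0.03. SIC1 was at 0.12 ± 0.11, and the other 7 members lay between -0.07 and 0.02. Over all genes 1.85% passed an unadjusted p under 0.05, and edgeR and DESeq2 called 0% in fits without the culture.

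**Figure D4:**
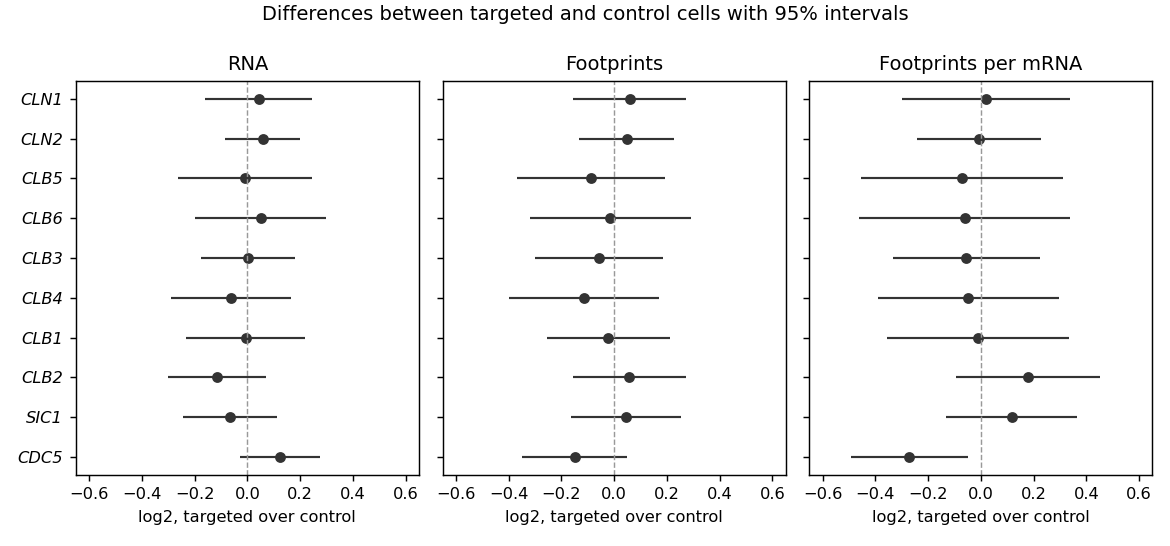
Log2 differences of targeted over control cells for the 10 genes in RNA, footprints and footprints per mRNA. Points are the edgeR estimates and lines the 95% intervals from 2 replicates a group. The intervals include 0 in every case except footprints per mRNA of CDC5, which runs from -0.49 to -0.05 and did not pass after adjustment over all genes.

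The surrounding cell-cycle genes were taken from 8 lists with 89 genes, and none of the 89 was called between targeted and control cells in RNA, footprints or footprints per mRNA. Their median log2 difference was 0.00 in RNA and 0.01 in footprints. At an unadjusted p under 0.05, 1 of 89 passed in RNA, LTE1, a factor of mitotic exit, at 0.16 ± 0.07. In footprints it was 3 of 89: CLN3, the cyclin upstream of CLN1 and CLN2, at -0.24 ± 0.11, APC9, a subunit of the anaphase-promoting complex, at -0.29 ± 0.13, and SPO12, a regulator of mitotic exit, at -0.23 ± 0.10. Both counts are below the background, since 4.46% of all genes passed in RNA and 4.54% in footprints. In footprints per mRNA 2 of 89 passed, near the 1.85% of all genes: APC4, a subunit of the anaphase-promoting complex, at 0.36 ± 0.14 and RUB1 at 0.35 ± 0.15, both with an adjusted p of 0.999986. The edgeR adjusted p was 0.973 for LTE1 and 0.999 for CLN3, APC9 and SPO12. WHI5, the repressor of G1 transcription, was at 0.38 ± 0.17 in footprints with an unadjusted p of 0.0505. PCL9, a cyclin of the kinase Pho85 that is made as cells leave mitosis, was at -0.23 ± 0.11 in RNA, and RUB1, a ubiquitin-like modifier of the SCF scaffold, at -0.22 ± 0.12. APC9 RNA was at -0.24 ± 0.13, in value on the same side as its footprints. The other genes with the smallest p of a list in RNA were STB1 (0.17), MSA2 (0.10), SWE1 (0.10), CDC21 (-0.11), FAR1 (-0.07), CDC28 (-0.07), GRR1 (0.09), APC1 (0.15), MYO1 (0.08), YHP1 (-0.05), DBF20 (0.17) and ASH1 (-0.09). In footprints they were MND2 (0.36), BFA1 (-0.24), SWE1 (0.19), HSL1 (0.18), IQG1 (-0.18), PCL2 (-0.17), FAR1 (-0.16), CDC34 (0.16), DSE2 (0.13), RUB1 (0.13), BUD4 (-0.10) and PCL9 (-0.20). None of these 24 values passed the test, and they lay on both sides of 0.

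In footprints per mRNA, 24 of the 89 genes were called higher and 39 lower in targeted cells, and 24 higher and 44 lower in control cells. Beside the 34.8% higher and 36.3% lower of all genes in targeted cells, and the 36.5% higher and 38.7% lower in control cells, the total called was near the background, with more of it on the lower side. The 10 genes of G1 activation had the lowest median log2 value against RNA, -0.66 in targeted and -0.67 in control cells, with 6 of 10 called lower in targeted and 7 of 10 in control cells, where 36.3% and 38.7% of all genes were. CLN3 was the lowest of them, at -1.86 ± 0.08 (adjusted p of 1.35e-06) in targeted and -1.64 ± 0.07 (adjusted p of 1.12e-07) in control cells. Its ratio was 0.519 and 0.586 in targeted and 0.643 and 0.619 in control cells, below that of every one of the 10 members. CLN1 and CLN2, the cyclins downstream of CLN3, had ratios of at least 1.499. Of the 11 genes of the G2/M group, the targets and factors of transcription before mitosis, 9 were called lower in targeted and 9 in control cells, against the same shares of all genes, with FKH2, a forkhead factor that binds the CLB2 promoter, at -1.06 ± 0.08 in targeted and -1.02 ± 0.11 in control cells. Genes that the G1 factors switch on had a median of 0.27 in targeted and 0.26 in control cells, although SWE1, the kinase that inhibits Clb-bound Cdc28, was at -1.60 ± 0.08 in targeted and -1.69 ± 0.09 in control cells. CDC28, the kinase itself, was called higher at 0.71 ± 0.11 in targeted and 0.70 ± 0.08 in control cells. HSL1, which acts against Swe1, was at -1.55 ± 0.11 in targeted and -1.71 ± 0.07 in control cells, and APC1 at -1.46 ± 0.09 and -1.45 ± 0.09. For the SCF ligase the median was 0.45 in targeted and 0.34 in control cells, with 4 of 7 genes called higher and 2 lower in each. GRR1, which recognises Cln proteins, was on the low side, at -0.98 ± 0.08 in targeted and -1.01 ± 0.10 in control cells. ESP1, the separase, was at -1.43 ± 0.10 and AMN1, an antagonist of mitotic exit, at -1.42 ± 0.09 in targeted cells, beside -1.42 ± 0.08 and -1.45 ± 0.05 in control cells. Apart from CDC28, the genes named here are the called gene of each list farthest from 0 in control cells, and each was low. The highest value of a list in control cells ran from 0.13 in the G2/M group to 1.15 in the G1/S targets.

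**Figure D5:**
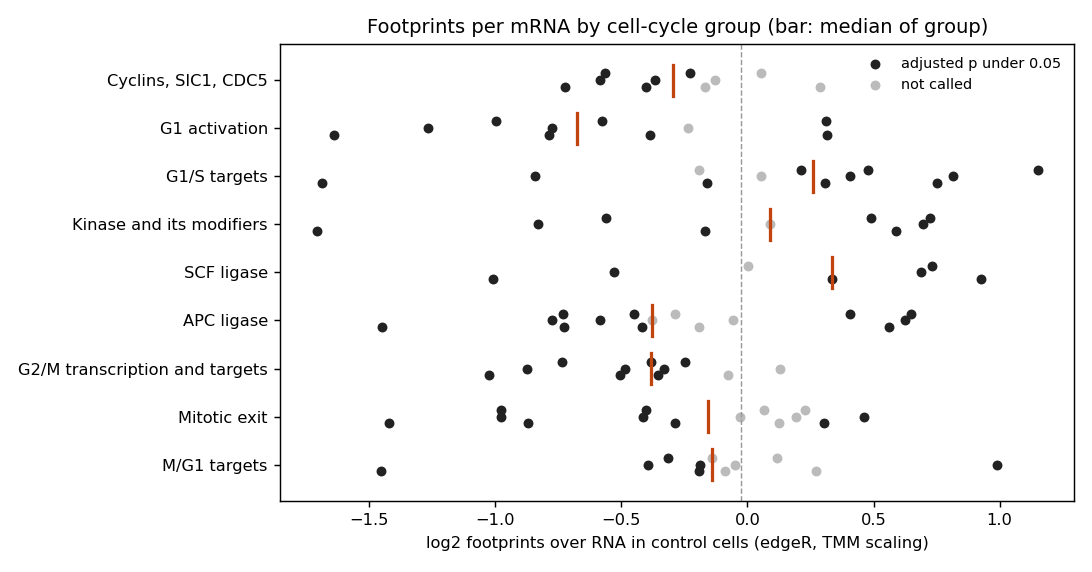
Log2 footprints over RNA in control cells, 1 point per gene, for the 10 genes and 8 lists of cell-cycle genes, with black points for an edgeR adjusted p under 0.05, red bars for medians and a dashed line for the median of all genes. The G1 activation group has the lowest median at -0.67 and the SCF ligase the highest at 0.34, with the 10 genes at -0.30.

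The genes whose deviations over the 8 libraries were closest to those of a member were found by the root mean square difference on the log2 scale, over 3428 genes with at least 10 CPM in each assay. They were STI1, MIT1 and MGM1 for CLN2 (0.02 each), CAB4, ABD1 and VMA5 for CLB2 (0.03, 0.03 and 0.04), THP3, HMRA1 and HMO1 for SIC1 (0.01, 0.03 and 0.03), and CBP3, CTF18 and YDC1 for CDC5 (0.03 each). The median over all genes was 0.09 to 0.10, and flat profiles lie close to each other by this measure.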

How the data were processed

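Per the submitters' processing notes, cutadapt and STAR were used with build R64, without versions. How reads were counted, with which strand setting and with what treatment of multi-mapping reads, is not stated there. Per the labels' protocols, footprints of 25 to 33 nt came from RNase I digests, and the RNA-seq libraries came from the same lysates after removal of rRNA. The deposited table gives whole-number counts for each gene. Its deposited RPKM columns use coding lengths. The deposited ratio is footprint over RNA RPKM, each plus 0.01, and a ratio recomputed that way matched it within 0.1% for all 10 members. Ratios printed here have no constant.

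The count tests used edgeR 4.0.16 under R 4.3.3: quasi-likelihood, two-sided, with TMM factors, the filterByExpr filter, and Benjamini-Hochberg adjustment over all genes at a threshold of 0.05. RNA and footprints were tested in their own 4 libraries, footprints against RNA in the 4 libraries of each cell group, and the change of that ratio over all 8. None of these main fits had a term for the culture or the replicate number. All 10 members passed the filter in each comparison. Each SE is the log2 value divided by the square root of F. As alternatives, DESeq2 1.42.0, other scaling, no filter, a block, and fits without each replicate were run. Members and lists were chosen with earlier results of these data known. Named genes were the members, from each list the genes with the smallest p between the cell groups, and the genes of nearest pattern. CDC28, APC4 and the genes farthest from 0 in footprints over RNA were chosen after their values were seen. RNA and footprint samples with the same number share a lysate, and their deviations correlated with r of 0.491 in targeted and 0.410 in control cells across 4161 genes. Whether replicates are separate cultures is not in the labels, so p-values describe only the spread among these samples, which may be technical. Counting intervals cover counting error only. No member overlaps another gene of the table. Sequences, the reporter and the guide RNAs were not analysed here. A gene of the G2/M list is not reported here. The scripts were tested on simulated data.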

Additional observations from a re-analysis of the deposited data

How the results depend on the processing

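No member was called between targeted and control cells in RNA, footprints or footprints per mRNA under any alternative run. Over all genes, the number called in RNA (21) was 13 without transposon rows and 0 to 21 without a replicate, lowest without control replicate 1. The number in footprints (32) was 20 scaled by library size alone and 43 to 159 without a replicate, highest without targeted replicate 1. For footprints per mRNA (0) it was 0 to 2 without a replicate. Where a group was left with 1 sample, that sample is assumed to vary like the others. With the replicate number as a block, calls were 19 in RNA and 60 in footprints, and 6 in footprints per mRNA with the culture as a block. Same-numbered samples of the cell groups did not deviate together (r of -0.162 in RNA and -0.0720 in footprints). With 2 replicates a group this cannot decide whether samples pair across the groups. A crossed replicate block, added after seeing the data, gave 71 calls in RNA and 0 among the members. The culture block changed no call of a member beyond CLB6 in control cells. Of the members called in footprints over RNA, 7 in targeted and 6 in control cells, 4 to 7 were called in targeted and 3 to 4 in control cells without a replicate. Log2 values changed sign as follows. In RNA, library size alone gave CLN1 -0.022, CLN2 -0.014, CLB6 -0.011, CLB3 -0.066, DESeq2 CLB1 0.00037 and the crossed block CLB5 0.012, CLB1 0.013. For footprints per mRNA, library size alone gave CLN2 0.057, CLB3 0.0057, CLB4 0.0103, CLB1 0.0399. In footprints over RNA, library size alone moved the median gene to 1.02 in targeted and 0.95 in control cells and gave CLN1 0.68, CLN2 0.80, CLB5 0.38, CLB3 0.25, CLB4 0.81, CLB2 0.64, SIC1 0.75, CDC5 0.63, GRR1 0.057 in targeted and CLN1 0.61, CLN2 0.74, CLB5 0.40, CLB3 0.25, CLB4 0.80, CLB2 0.40, SIC1 0.58, CDC5 0.85 in control cells. Without a replicate, signs changed in RNA for CDC21 (-0.27 to 0.064), CDC28 (-0.20 to 0.082), CLB1 (-0.12 to 0.14), CLB3 (-0.039 to 0.051), CLB4 (-0.12 to 0.011), CLB5 (-0.13 to 0.14), CLB6 (-0.0016 to 0.12), CLN1 (-0.063 to 0.15), MSA2 (-0.0304 to 0.26), YHP1 (-0.12 to 0.0296), in footprints for CLB1 (-0.15 to 0.10), CLB2 (-0.0014 to 0.12), CLB3 (-0.12 to 0.0055), CLB6 (-0.16 to 0.18), CLN1 (-0.048 to 0.16), CLN2 (-0.035 to 0.14), SIC1 (-0.013 to 0.092), in footprints per mRNA for CLB1 (-0.17 to 0.13), CLB3 (-0.10 to 0.0055), CLB4 (-0.10 to 0.036), CLB5 (-0.29 to 0.11), CLB6 (-0.15 to 0.071), CLN2 (-0.084 to 0.094), and in footprints over RNA for CLB1 in targeted (-0.069 to 0.14) and control cells (-0.073 to 0.22). The causes of these shifts were not tested. Motif searches that needed sequences were not run.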
